A study of Mus musculus with 12 samples.

Results

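Chromatin accessibility was examined at 10 mouse genes of the Notch pathway, the receptors Notch1, Notch2 and Notch3, the ligands Jag1, Jag2 and Dll1, and the target genes Hes1, Hey1, Hey2 and Heyl. A peak was assigned to a gene when its window overlapped the annotated gene body or the 25 kb on either side (GENCODE M21, mm10), which gave 126 of the 176680 peaks in the table and no peak shared between genes. The receptors held 67 of these peaks, the ligands 29 and the targets 30.

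The data are ATAC-seq, in which Tn5 transposase cuts open chromatin, from wild-type C57BL/6N mouse embryonic fibroblasts (MEFs) prepared from E13.5 embryos. The whole series holds 12 libraries in 4 groups of 3, and all cells received a lentivirus for rtTA, the doxycycline-dependent activator, and were collected on day 2 with 2 ug/ml doxycycline. The comparison described here is between 4in1_GFP_OE, which received rtTA, the reprogramming cassette 4in1 and GFP under a tetO promoter, and 4in1_Prox1_OE, which received rtTA, 4in1 and FLAG-tagged mouse Prox1 under a tetO promoter. The groups MEF (rtTA alone) and Prox1_OE (rtTA and Prox1) are not analysed here. Each library came from a transduced population in which the share of cells carrying each transgene was not measured here. In the groups compared the labels number 3 replicates without saying whether they were separate cultures.

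Notch receptors are single-pass membrane proteins that are activated by ligands of the Jagged and Delta families on a neighbouring cell. Ligand pulling exposes the receptor to cleavage by ADAM10 and then by gamma-secretase, and the released intracellular domain enters the nucleus, where it joins the DNA-binding protein RBPJ and a Mastermind coactivator. The best known direct targets encode HES and HEY proteins, basic helix-loop-helix repressors that restrain differentiation genes. In the liver, Jag1 and Notch2 are needed to form bile ducts, and Notch3 is a marker of vascular smooth muscle cells and pericytes.

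Accessibility is given as mean normalized reads in a peak, the authors' mean for each group, and each difference is the log2 mean of 4in1_Prox1_OE minus that of 4in1_GFP_OE. No values per library were used, so no spread between replicates, no test and no depth per library stand behind these values, and a peak was counted as lower or higher when the group means differed by at least 2-fold. Peaks are not replicates of a condition. Because 24.4% of all peaks were lower and 8.33% were higher by this measure, the median difference over all peaks was -0.42, and differences at the 10 genes are given beside that shift. To compare peaks of like signal, all peaks were put into 10 equal groups by mean accessibility, and each difference is also given as its percentile within its own group, called the matched percentile below. These groups mix promoter and distal peaks, whose median differences were -0.21 and -0.49. A promoter with little difference can thus have a high matched percentile, such as 92.4 at Notch3 for a difference of 0.0049.

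The labels could be checked against the table at the transgene and at marker genes. A window in a coding exon of Prox1 had 16.1 reads in 4in1_GFP_OE and 6847 in 4in1_Prox1_OE, and windows in its other coding exons were at 13.8 and 2078 reads and at 3.42 and 1632 reads, where vector DNA cannot be told apart from open chromatin. The promoter peak of Prox1 went the other way, from 455 to 211 reads (-1.11). Of the fibroblast markers, 10 of 10 had a promoter peak (156 to 784 reads in 4in1_GFP_OE and 128 to 615 in 4in1_Prox1_OE), whereas 0 of 8 hepatocyte markers, Alb and Ttr among them, had one. Promoter peaks were present at 4 of 5 endothelial markers (61.2 to 458 reads in 4in1_GFP_OE and 42.3 to 447 in 4in1_Prox1_OE, with none at Cdh5), 2 of 4 blood markers (274 to 437 and 84.1 to 308, with none at Ptprc and Spi1), 5 of 5 epithelial markers (134 to 303 and 133 to 389) and 4 of 4 neural markers (109 to 467 and 133 to 470.1). Summed promoter reads went from 4263 to 3219 over the fibroblast list, from 1185 to 815 over the endothelial list, from 712 to 392 over the blood list, from 1042 to 1106 over the epithelial list and from 1385 to 1442 over the neural list, where the sum over all promoter peaks had a difference of -0.24. The epithelial members went opposite ways, from -0.95 at Krt19 and -0.76 at Krt8 to 0.74 at Krt18 and 1.00 at Epcam. The part of a changing cell mixture in the Notch values was not tested.

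The sequences of 5 windows are shown, those of the 2 most positive and the 3 most negative differences among the well covered Notch peaks, meaning peaks above the median accessibility of all peaks (105 reads). They were read from the plus strand of GRCm38.p6, and capitals mark matches on either strand to 1 of 8 motifs, which were the RBPJ core TGGGAA, AP-1 (TGACTCA or TGAGTCA), TEAD (GGAATG), the HES and HEY E-box (CACGTG or CACGCG), FOXA (TGTTTAC or TGTTTGC), the motif of GATA factors (AGATAA or TGATAA) and the longer PROX1 and CTCF motifs with up to 1 mismatch. Where 2 motif classes match the same bases, each was counted on its own. The first 2 windows were more accessible in 4in1_Prox1_OE and the last 3 less accessible, each in order of size.
Notch3 chr17:32146682-32146882: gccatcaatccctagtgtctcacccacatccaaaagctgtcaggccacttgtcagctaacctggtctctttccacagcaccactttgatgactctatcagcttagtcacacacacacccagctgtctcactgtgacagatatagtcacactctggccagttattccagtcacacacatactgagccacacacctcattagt
Heyl chr4:123226028-123226228: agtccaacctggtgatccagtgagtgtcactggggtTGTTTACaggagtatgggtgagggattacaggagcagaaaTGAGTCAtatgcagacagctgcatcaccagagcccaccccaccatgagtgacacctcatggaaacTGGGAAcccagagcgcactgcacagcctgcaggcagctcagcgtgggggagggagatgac
Jag1 chr2:137067774-137067974: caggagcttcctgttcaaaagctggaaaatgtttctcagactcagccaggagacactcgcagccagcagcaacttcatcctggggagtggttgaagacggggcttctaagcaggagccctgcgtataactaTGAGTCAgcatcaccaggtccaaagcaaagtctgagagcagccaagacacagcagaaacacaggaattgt
Notch2 chr3:98056881-98057081: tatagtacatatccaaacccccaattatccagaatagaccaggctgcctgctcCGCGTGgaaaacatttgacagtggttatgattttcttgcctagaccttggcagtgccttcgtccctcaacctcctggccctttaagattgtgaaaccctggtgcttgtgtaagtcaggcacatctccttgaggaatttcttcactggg
Notch3 chr17:32169899-32170099: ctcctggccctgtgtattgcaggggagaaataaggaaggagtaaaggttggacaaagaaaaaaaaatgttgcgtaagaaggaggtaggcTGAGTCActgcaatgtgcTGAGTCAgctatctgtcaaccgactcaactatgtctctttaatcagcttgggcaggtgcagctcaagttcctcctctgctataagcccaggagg

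The most positive window, in an intron of Notch3, held no match to any of the 8 motifs. The Heyl window upstream of the gene held a FOXA match at base 37, an AP-1 match at base 77 and an RBPJ match at base 142, counted from 1 at the first base shown. The Jag1 window, which lies in a coding exon of the neighbouring gene Slx4ip, held an AP-1 match at base 132. The Notch2 window, in an intron, held the reverse complement of the E-box CACGCG at base 54, and the Notch3 window upstream of the gene held AP-1 matches at bases 90 and 108. A match is a run of letters and not a measured binding site.

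Over the 126 peaks, 20 (15.9%) were lower and 9 (7.14%) higher by at least 2-fold, against 24.4% and 8.33% of all peaks. Their differences ranged from -1.82 to 1.85 with a median of -0.25 and quartiles of -0.67 and 0.16, and 77 of 126 lay above the median of all peaks. Values below 0 were found at 85 of 126 (67.5%), against 72.3% of all peaks. Once all differences were centred on the median of all peaks, 8.64% of all peaks were lower and 13.4% higher. Of the Notch peaks 4 (3.17%) were then lower and 18 (14.3%) higher. The direction of the split thus rests on where 0 is placed, as it does for all peaks. Under both placements the share of lower peaks at the 10 genes was below that of all peaks. The share of higher peaks was near that of all peaks. The 105 peaks away from any start site included all 20 lower (19.0%) and 9 higher (8.57%) peaks, whereas 26.7% of distal peaks genome-wide were lower and 9.08% higher.

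**Figure D1:**
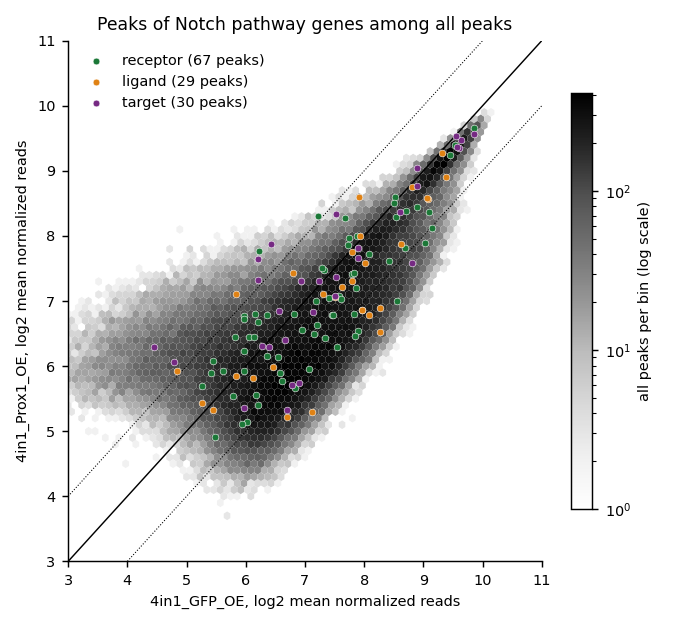
Each point is 1 of the 126 Notch peaks, placed by its log2 mean normalized reads in 4in1_GFP_OE (x axis) and 4in1_Prox1_OE (y axis) and coloured by receptor, ligand or target, over a density of all 176680 peaks in grey (log colour scale; peaks outside the axes are not drawn). The solid line marks equality and the dotted lines a 2-fold difference; 20 points lie below the lower dotted line and 9 above the upper one.

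Receptor peaks had a median difference of -0.36, with 9 of 67 lower (13.4%) and 2 higher (2.99%). Ligand peaks had a median of -0.42, with 7 of 29 lower (24.1%) and 2 higher (6.90%), values close to those of all peaks (-0.42, 24.4% and 8.33%). Target peaks had a median of -0.14, with 4 of 30 lower (13.3%, nearly the share of receptors) and 5 higher (16.7%), and 24 of 30 lay above the median of all peaks. Gene medians spanned more than the class medians and ran from -0.64 at Notch2 to 0.0049 at Notch3 among receptors, from -0.48 at Jag1 to -0.04 at Jag2 among ligands, and from -0.28 at Hes1 to 0.13 at Hey1 among targets. Notch2, Jag1 and Dll1 had medians below 0 under each of the 4 other placements of 0 that were tried, and Notch1, Notch3, Jag2, Hey1 and Heyl had medians above 0 under all 4, whereas those of Hes1 and Hey2 were above 0 under 2 and 3 of them. The order also depended on which peaks were counted. Within gene bodies alone the medians were 0.99 at Jag2 (2 peaks), -0.07 at Hey1 (2 peaks) and -0.23 at Heyl (3 peaks). Without the 25% of peaks of lowest accessibility that of Hey1 was -0.01.

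**Figure D2:**
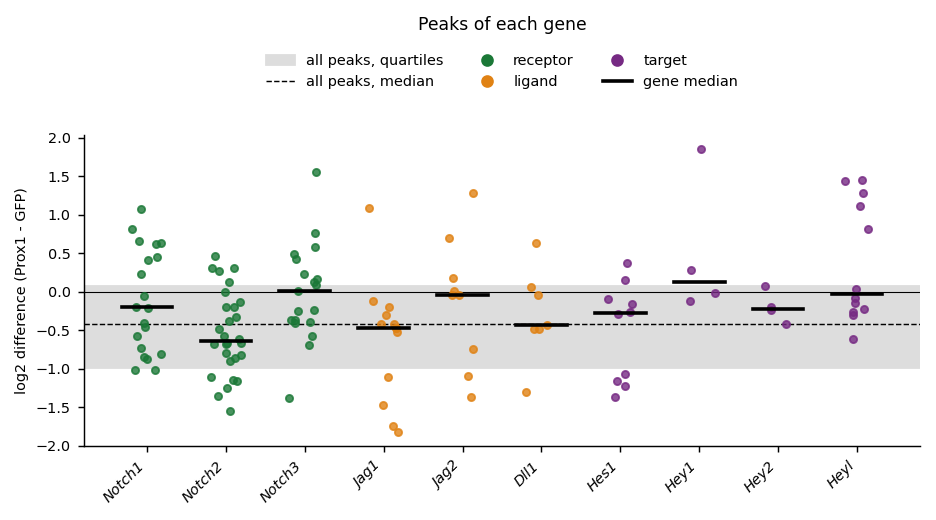
Points show the log2 difference (4in1_Prox1_OE minus 4in1_GFP_OE) of each of the 126 peaks by gene (x axis), with horizontal placement within a gene chosen for legibility only, black bars at gene medians and a grey band at the quartiles of all peaks (-0.99 and 0.07). Notch2 and Jag1 have the lowest medians (-0.64 and -0.48), and 4 Heyl points lie above 1.

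At the promoters, 10 of 10 genes had a peak within 1 kb of an annotated start site, and the most accessible one is described for each gene. None was past a 2-fold difference in either direction, where 8.26% of all 22215 promoter peaks were lower and 3.16% higher. The 2 sets were chosen differently, since the 22215 are every peak within 1 kb of any start site, weaker ones included. At 1.5-fold, 2 of 10 were higher (Heyl and Jag2) and 0 lower, beside 6.46% and 19.5% of all promoter peaks. The call depended on where 0 was placed, since 2 of 10 were higher by 2-fold when centred on the median of all peaks or scaled to equal totals, and 1 when centred on promoter peaks or on the most accessible 10%. The median over the 10 was -0.09, that of all promoter peaks -0.21, and 9 of the 10 lay above the latter. The 10 promoters were open in both groups, at 184 to 795 reads in 4in1_GFP_OE. Among the most accessible 10% of all peaks were 7 of the 10, and 10922 of the 22215 promoter peaks.

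Among the targets, the promoter of Heyl, whose product is a Notch-induced repressor of the HEY family, went from 184 reads in 4in1_GFP_OE to 323 in 4in1_Prox1_OE (log2 difference 0.81, matched percentile 99.3). This was the most positive promoter difference of the 10. Hes1, the best known Notch target, had 795 and 713 reads at its start site (-0.16). A second Hes1 window, 1.13 kb upstream and therefore outside the 1 kb limit, had more reads, 926 and 755 (-0.29). The promoters of Hey1 and Hey2, repressors that act in vascular and cardiac development, differed little: Hey1 had 753 and 745 reads (-0.01) and Hey2 had 759 and 661 (-0.20).

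Among the ligands, Jag2 went from 239.7 to 389 reads (0.70, matched percentile 98.9) and Jag1 from 534 to 384 (-0.48, matched percentile 28.0). These Jagged ligands thus had the highest and the lowest promoter difference of the ligands. Dll1, a Delta ligand, had 223 and 216 reads (-0.05) in a window that also covers the start of the noncoding gene A930024N18Rik. Among the receptors, Notch1 had 699.7 and 604 reads (-0.21), Notch2 had 743 and 675 (-0.14) and Notch3 had 363 and 364 (0.0049), which leaves the 3 receptor promoters close to one another in their differences. With only group means, none of these promoter differences can be set against replicate error.

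**Figure D3:**
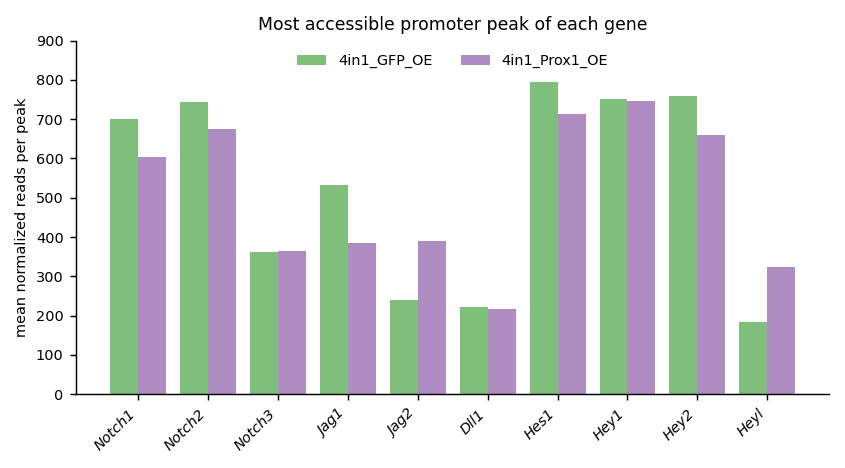
Bars give the mean normalized reads (y axis, from 0) of the most accessible promoter peak of each of the 10 genes in 4in1_GFP_OE (green) and 4in1_Prox1_OE (purple); they are group means, with no error bars. Heyl (184 and 323) and Jag2 (239.7 and 389) are higher in 4in1_Prox1_OE, Jag1 (534 and 384) is lower, and the other pairs lie closer together.

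The differences past 2-fold all lay away from the start sites, in introns, in 1 coding exon of Notch1, in neighbouring genes or between genes. Each of these peaks is placed by the distance from its centre to the start site of the gene it was assigned to, and assignment by distance says nothing of which gene a peak acts on.

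At Notch2 (chr3:98013527-98150361, plus strand), 23 of 28 differences were below 0, and summed reads went from 5573 to 3805 (-0.55). All 6 lower peaks were in introns of the gene, between 11.1 and 88.3 kb from the start site, and 0 peaks were higher. The 6 were 21.4% of the Notch2 peaks, beside 24.4% of all peaks, and 1 was lower once centred on the median of all peaks. The largest negative difference was 43.4 kb into the gene, at chr3:98056881-98057081, where 375 reads in 4in1_GFP_OE stood against 128 in 4in1_Prox1_OE (-1.56, matched percentile 5.59). A window 11.1 kb from the start site had 522 and 236 reads (-1.14, matched percentile 6.59). The window at 88.3 kb had 238 and 92.7 reads (-1.36, matched percentile 14.8) and held an RBPJ match at base 20 and an AP-1 match at base 195. The other 3 lower windows, at 61.5, 66.3 and 79.5 kb, had 134 and 62.2, 186 and 78.2, and 114 and 50.8 reads. The matched percentiles of these 6 ran from 5.59 to 24.2. The most positive difference of a well covered Notch2 peak was 0.12, at 54.1 kb, and over the 23 peaks within the gene body the median was -0.66, against -0.10 for the 4 upstream.

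The Notch1 locus (chr2:26457903-26516663, minus strand) held 2 lower (10.0%) and 1 higher (5.00%) of 20 peaks, beside 24.4% and 8.33% of all peaks, and 0 lower and 5 higher once centred on the median of all peaks. The higher peak lay in a coding exon near the end of the gene, 44.1 kb from the start site, at chr2:26459574-26459774, and went from 149.5 to 315 reads (1.08). This was the highest matched percentile of the 126 peaks, 99.7, and the window held a TEAD match at base 45 and an RBPJ match at base 169. Windows lower by at least 2-fold were found in an intron 9.22 kb into the gene, with 564 and 279.7 reads (-1.01), and 28.2 kb upstream, with 227 and 112 reads (-1.02). The first of these, at the 9.51 matched percentile, was among the most accessible Notch1 windows in 4in1_GFP_OE. The 12 peaks in the gene body had a median of 0.09 and the 5 upstream one of -0.58. The annotated Notch1 body extends upstream of the start site used for distances. Its 12 peaks thus include windows 3.86, 11.7 and 12.7 kb upstream of that site (-0.73, 0.62 and 0.23), and no median was taken without them. Summed over the locus, reads went from 4961 to 4084 (-0.28), of which the promoter peak held 14.1% in 4in1_GFP_OE.

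Notch3 (chr17:32120820-32166852, minus strand) had the highest median and the highest summed difference of the receptors. Of its 19 peaks 16 lay above the median of all peaks, and summed reads were 3418 and 3371 (-0.02). One intronic window, 20.1 kb into the gene at chr17:32146682-32146882, went from 74.6 to 219 reads (1.55), the largest positive difference among the well covered Notch peaks. Its matched percentile was 99.1. A window 3.15 kb upstream of the gene, at chr17:32169899-32170099, went the other way, from 229 to 88.4 reads (-1.38, matched percentile 13.9). Of the 6 peaks in the gene body 5 were at or above 0, the exception being a window in a coding exon near the gene's end with 169 and 132 reads (-0.36). A coding-exon window 23.5 kb into the gene had 366 and 388 reads (0.09), which put it at the 95.7 matched percentile although its means were nearly equal. A further positive difference, 0.59, was at the start site of the neighbouring Pdxk-ps, with 206 and 309 reads.

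Among the ligands, Jag1 (chr2:137081456-137116644, minus strand), the ligand tied to bile duct formation, had 12 of 13 differences below 0 (72.3% of all peaks were) and 2722 and 1747 summed reads (-0.64), the most negative sum of the 10 genes. Its 4 lower peaks, 30.8% of the 13 beside 24.4% of all peaks, all lay beyond the end of the gene, 37.5 to 53.7 kb from the start site, in and near Slx4ip. The lowest well covered window, at chr2:137067774-137067974 in a coding exon of Slx4ip, had 307 and 91.7 reads (-1.74, matched percentile 3.06). Its neighbour 1.16 kb away, in an untranslated exon of Slx4ip, had 138 and 39.2 reads (-1.82, matched percentile 1.77), the most negative difference of all 126. The remaining lower windows had 104 and 37.4 reads (-1.48) and 251 and 116 reads (-1.11). Only these neighbouring Slx4ip windows lay within the lowest 5% of peaks of like signal, and 2 of 126 peaks (1.59%) did so in all. Inside Jag1 the differences were smaller, -0.52 at 2.31 kb (544 and 379 reads) and -0.42 in a coding exon at 1.16 kb (257 and 192 reads). One sparsely covered intronic window was higher, with 28.7 and 61.0 reads (1.09). The median over the 6 downstream peaks was -1.29, and that over the 6 in the gene body was -0.36.

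Jag2 (chr12:112907819-112929776, minus strand) had 1 higher window of 9 (11.1%), inside the gene, and 2 lower ones (22.2%) beyond its end, shares near the 8.33% and 24.4% of all peaks, while its promoter was within 2-fold. Once centred on the median of all peaks, 0 were lower and 2 higher. An intronic window 7.0 kb from the start site went from 56.8 to 138 reads (1.28, matched percentile 95.5), and with the promoter it made up the 2 peaks in the gene body. Beyond the end of the gene, windows at 31.8 and 35.3 kb had 308 and 119 reads (-1.37) and 249 and 117 reads (-1.09). Upstream, the start site of Nudt14 had 446 and 431 reads (-0.05) and that of Gm26583 had 638 and 622 (-0.04), so neighbouring promoters were nearly level. The locus as a whole summed to 2427 and 2151 reads (-0.17).

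Dll1 (chr17:15367354-15376872, minus strand) held 7 peaks. The lowest, 2.16 kb upstream in a noncoding exon of A930024N18Rik, had 271 and 110.1 reads (-1.30, matched percentile 17.6), and contained an RBPJ and a CTCF match. The highest, 32.7 kb from the start site beyond the gene's end, had 112 and 172 reads (0.63, matched percentile 94.1). The start site of Fam120b, 20.2 kb upstream, had 671 and 481 reads (-0.48).

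**Figure D4:**
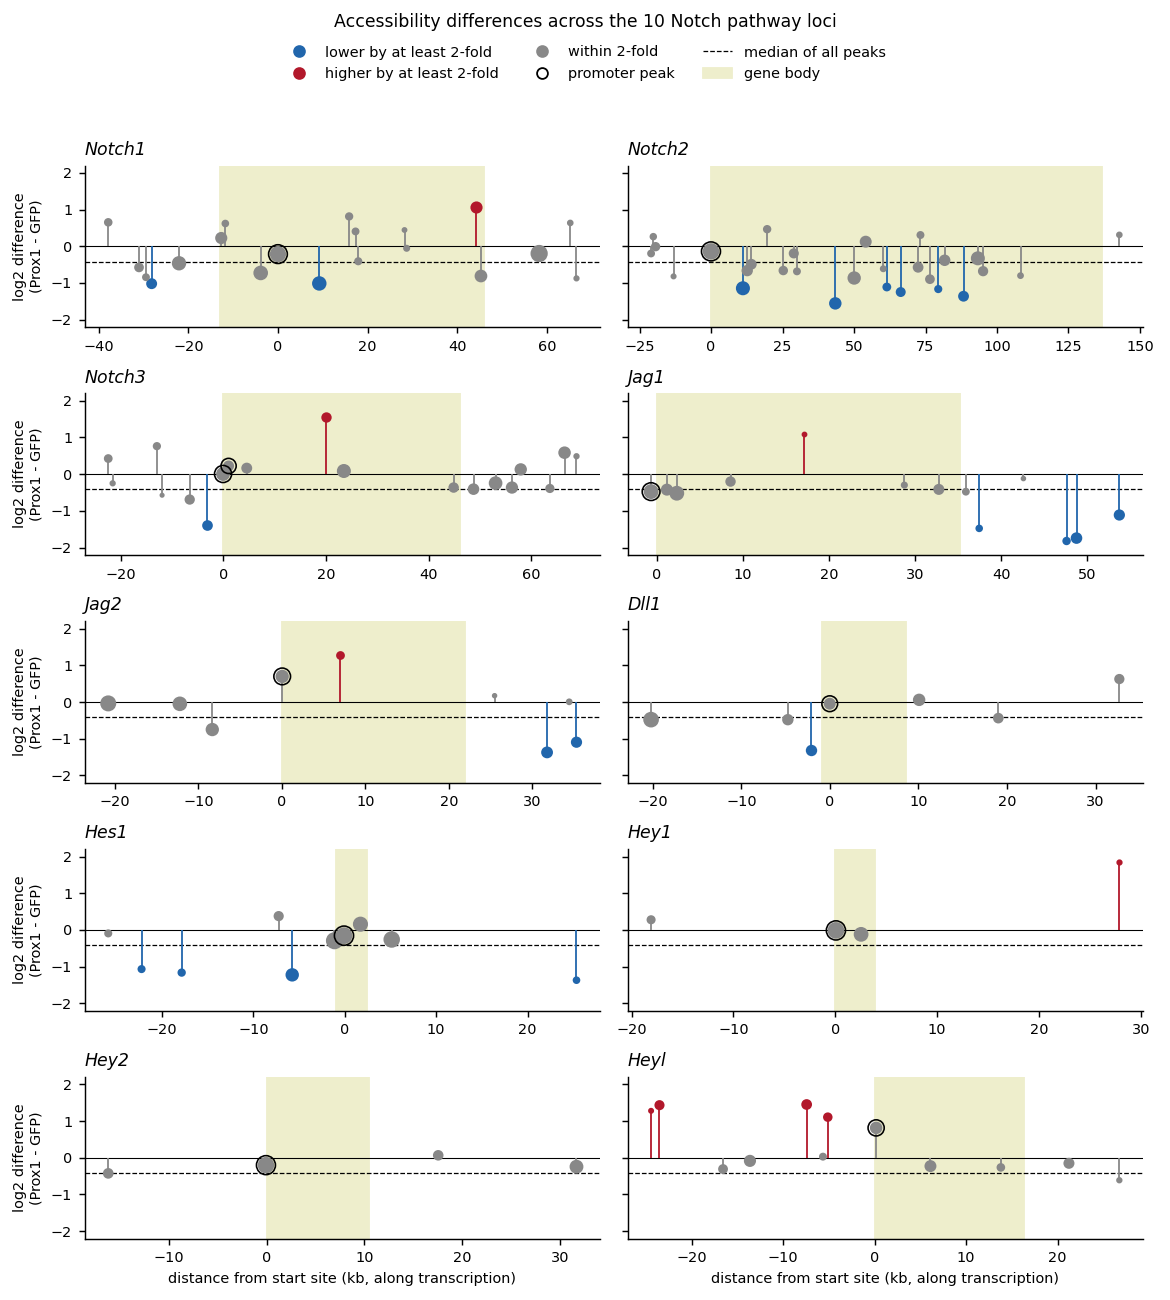
Each panel shows the peaks of 1 of the 10 genes by distance from the start site along transcription (x axis, kb) and log2 difference between groups (y axis), with point area rising with mean accessibility, the gene body shaded, promoter peaks ringed and a dashed line at the median of all peaks (-0.42). The 6 lower Notch2 peaks lie inside the gene, the 4 lower Jag1 peaks beyond its end, and the 4 higher Heyl peaks upstream of the gene.

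Heyl (chr4:123233556-123249875, plus strand) had 4 higher (33.3%, beside 8.33% of all peaks) and 0 lower (beside 24.4%) of 12 peaks, 11 of 12 above the median of all peaks and summed reads of 1488 and 1898 (0.35), the most positive sum of the 10 genes. All 4 higher peaks were upstream, 2 of them in introns of the neighbouring gene Nt5c1a. The window 7.43 kb upstream, at chr4:123226028-123226228, went from 86.1 to 236 reads (1.45, matched percentile 98.9), and one 5.12 kb upstream from 74.3 to 160.0 reads (1.11, matched percentile 96.0). A sparsely covered window 24.4 kb upstream had 27.5 and 66.8 reads (1.28). The Heyl locus held 4 of the 11 Notch peaks (8.73% of 126) at or above the 95th matched percentile, its promoter among them. Between and beyond them the locus was level or lower: windows 13.6 and 5.65 kb upstream had 239 and 225 reads (-0.08) and 77.7 and 79.4 reads (0.03), and an intronic window 6.10 kb into the gene had 238 and 203 (-0.23).

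At Hes1 (chr16:30064384-30067796, plus strand) 4 of 10 peaks were lower (beside 24.4% of all peaks) and 0 higher (beside 8.33%), all 4 between genes. However, 6 of 10 lay above the median of all peaks, summed reads of 3964 and 3222 (-0.30) differed less than those of all peaks (-0.41), and 0 of the 10 were lower by 2-fold once centred on that median, where the Hes1 median became 0.14. The window 5.76 kb upstream, at chr16:30059479-30059679, had 451 and 193 reads (-1.22, matched percentile 5.06) and held a TEAD and a GATA match. Windows 22.3 and 17.9 kb upstream had 110.1 and 52.6 reads (-1.07) and 119.7 and 53.5 reads (-1.16), and one 25.4 kb downstream had 104 and 40.1 (-1.37). Around the gene itself the windows were highly accessible and differed less. One in a coding exon had 473 and 527 reads (0.16, matched percentile 97.3), and one 5.13 kb from the start site had 780.3 and 651 (-0.26). A window 7.24 kb upstream, between the lower ones, had 122 and 158 reads (0.38).

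Hey1 (chr3:8663359-8667256, minus strand) and Hey2 (chr10:30832359-30842801, minus strand) had 4 peaks each. At Hey1 the promoter held 56.0% of the reads of the locus in 4in1_GFP_OE, and a coding-exon window at 2.54 kb had 475 and 437 reads (-0.12). A sparse intergenic window 27.9 kb beyond the start site had 21.8 and 78.8 reads (1.85, matched percentile 94.5), the largest positive difference of all 126, from the lowest mean in 4in1_GFP_OE. The Hey2 differences lay between -0.42 and 0.07. Its furthest window, 31.7 kb from the start site, had 390 and 330 reads (-0.24).

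The 5 most negative well covered peaks were those at Jag1 (-1.74), Notch2 (-1.56 and -1.36), Notch3 (-1.38) and Jag2 (-1.37), and the 5 most positive were those at Notch3 (1.55), Heyl (3 peaks, among them 1.45 and 1.11) and Notch1 (1.08).

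Sequence matches over the whole set were described against all peaks. RBPJ, the DNA-binding partner of the Notch intracellular domain, had its core in 39 of 126 windows (31.0%) and in 19.8% of all peaks. The windows with it had a median difference of -0.25 and the 87 without it one of -0.24, so the medians were nearly the same. AP-1 matches, bound by JUN and FOS factors, were in 22 windows (17.5%, all peaks 23.0%), with a median of -0.44 against -0.20 in the 104 without. Genome-wide the medians were -0.84 with and -0.31 without AP-1, so the order at the Notch genes was that of all peaks. Of the 20 lower peaks 8 held AP-1 and of the 9 higher ones 1 did. The AP-1 shares among all lower and all higher peaks were not counted, so these counts cannot be set against a background.

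E-box matches for HES and HEY proteins were in 16 windows (12.7%, all peaks 5.99%), with a median of -0.15 against -0.28 without (all peaks -0.19 and -0.44, the same order), and the promoter windows of Hes1, Hey1 and Notch2 were among them. FOXA matches were in 4 windows (3.17%, all peaks 6.71%), 2 of them higher and both at Heyl and the others at Notch1 (0.62) and Hey2 (-0.24). The median of these 4 was 1.03, against -0.26 in the 122 without, whereas over all peaks both medians were -0.42. TEAD matches were in 22 windows (17.5%, all peaks 20.1%), GATA matches in 12 (9.52%, all peaks 12.1%) and CTCF matches in 11 (8.73%, all peaks 10.5%). The PROX1 motif was in 1 window (0.794%, all peaks 0.305%), in an intron of Sec16a 66.6 kb from the Notch1 start site, with 64.7 and 35.3 reads (-0.87). Base composition moved with the values as well: Pearson's r between GC content and difference was 0.29 over the 126 windows and 0.17 over all peaks, and that between mean accessibility and difference was -0.13 and -0.22. The peaks share libraries and loci, so these are descriptions across peaks, and the part of GC content in the result was not tested.

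The rest of the pathway was followed at the promoters of 41 other genes, of which 40 had a promoter peak (Hes7 had none). Only Notch4, a receptor best known from endothelium, was past 2-fold, with 249.7 and 122 reads (-1.03), so 1 of 40 was lower and 0 higher beside 8.26% and 3.16% of all promoter peaks. Here too the most accessible promoter peak of each gene stands beside a set that includes weaker ones. The 40 differences had a median of -0.22, near the -0.21 of all promoter peaks, and 36 (90.0%) were below 0, beside 77.9% of all promoter peaks. The smallest differences were at Pofut1, which adds O-fucose to Notch receptors (687 and 666 reads, -0.04), and at Nrarp, a Notch-induced feedback inhibitor (459 and 474 reads, 0.05).

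By role, the genes of the nuclear complex, among them Rbpj (439 and 363 reads) and the Mastermind genes, were within -0.33 and -0.15 in 8 of 8 cases. Genes of ligand uptake and receptor cleavage were below 0 in 10 of 11 cases, the metalloprotease Adam10 having 802 and 693 reads (-0.21). The 5 glycosyltransferase genes were all below 0, from -0.42 at Lfng, which tunes the response to Jagged and Delta ligands, to -0.04 at Pofut1. The 7 inhibitors and turnover genes, Numb and Fbxw7 among them, ranged from -0.47 to -0.13. Of the other targets, Dtx1, a Deltex family regulator of Notch, had 206 and 332 reads (0.69, matched percentile 98.8), the highest of the 40, and was named after its value was seen. The other ligand genes included Dll4 (245 and 176 reads, -0.48) and the noncanonical ligand gene Dlk1 (299.5 and 359 reads, 0.26).

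**Figure D5:**
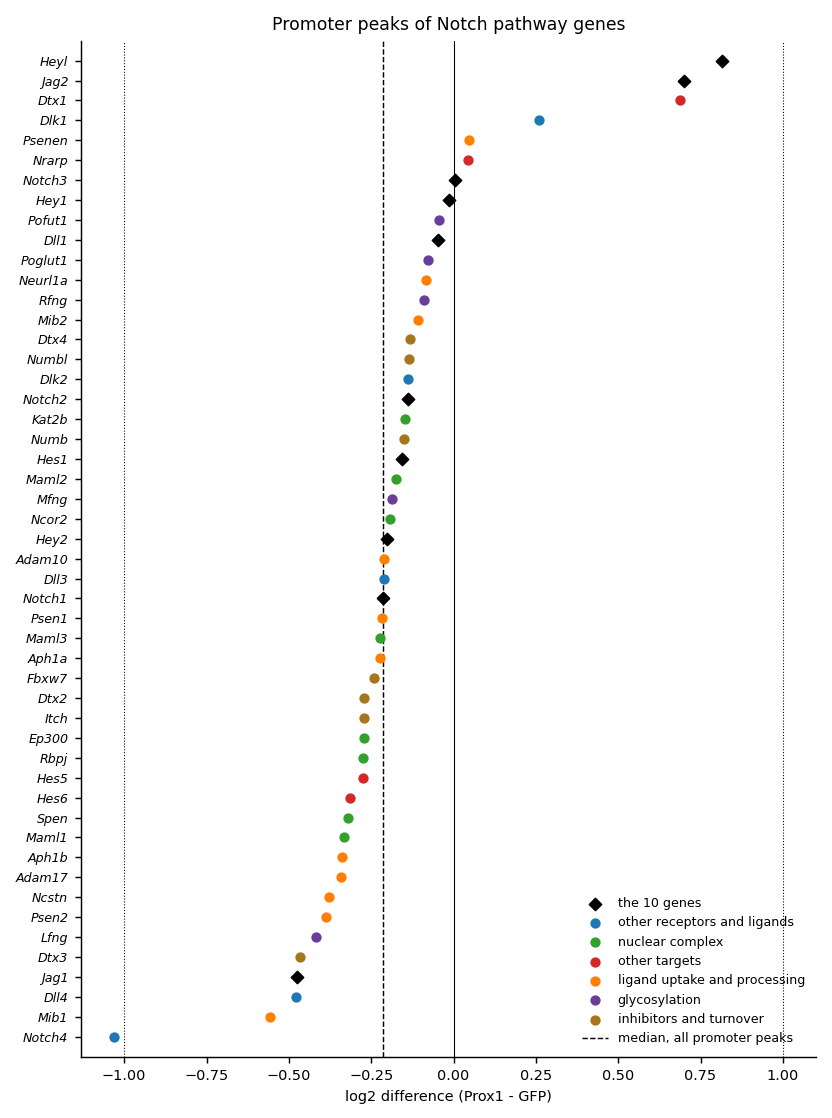
Each row is 1 gene and each point the log2 difference (x axis) of its most accessible promoter peak, with the 10 genes as black diamonds and the 40 others coloured by role; the dashed line is the median of all promoter peaks (-0.21) and the dotted lines mark 2-fold. Heyl, Jag2 and Dtx1 lie furthest to the right (0.81, 0.70 and 0.69) and Notch4 furthest to the left (-1.03).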

How the data were processed

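ATAC-seq of transduced MEFs was analysed from 1 table of peaks, with peaks in rows and group means in columns. Per the study's methods, the authors aligned reads to mm10 with Bowtie2 (2.3.4.3) and recalibrated them for Tn5 insertion bias. Which tool called the peaks is unsettled, MACS2 being given in the methods and Genrich in the reporting summary. DiffBind (3.4.11) then merged peaks and counted reads in windows, 176672 of them 201 bases wide and 8 wider (up to 391 bases), and whether peaks were called per library or on pooled reads is not given in the sources used here. The deposited concentrations are log2 mean normalized read counts, over both groups and within each, and for normalization the methods point to the vignette of that DiffBind version and name no setting of their own. A scaling that removes a global difference would shift every difference by the same amount.

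The table also holds the authors' fold change, p-value and FDR for each peak, and 2 peak lists hold peaks that the authors called in either direction. None of these was used. Value columns that matched no sample numbered 0. Since only means per group were used, there is no test and no error, and the number of libraries (3 per group) and their depth set the precision in a way that cannot be read here.

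Differences were computed as the log2 mean of 4in1_Prox1_OE minus that of 4in1_GFP_OE, with no pseudocount and no filter. Windows were matched to GENCODE M21 genes, and promoter peaks to start sites of its basic transcripts, within 1 kb. Sequences and motif matches were read from GRCm38.p6. Of the 10 genes, 7 are in the RefSeq promoter table (GRCm38.p6), which lacks Hes1, Hey1 and Heyl, and no promoter is printed. Python (3.11.15), pandas (2.3.3) and numpy (2.4.6) were used, and the scripts were tested on simulated data. The genes, the pathway, marker and motif lists and the rules were chosen with earlier results of these data known. For each gene, the rule named the most accessible promoter peak and the most negative and most positive well covered peaks (mean accessibility above the median of all peaks). Over all genes it named the 5 most negative and 5 most positive such peaks. Of the other pathway genes it named those past 2-fold and the 2 with the smallest differences. Other peaks were named after their values were seen. Alternatives changed the placement of 0, the fold threshold, the distance around genes, low-value filters, a pseudocount and the promoter definition. A few marker genes and 1 Heyl window are not reported here singly.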

Additional observations from a re-analysis of the deposited data

How the results depend on the processing

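Placing 0 at the all-peak median (-0.42), scaling to equal totals (-0.41), centring on the most accessible 10% of peaks (-0.26) or on promoter peaks (-0.21) changed the 20 lower peaks to 4, 4, 9 and 11. The 9 higher peaks became 18 and 17 under the first 2 of these, and the median of -0.25 became 0.17, 0.17, 0.02 and -0.03, so its sign rests on the placement of 0. Promoter peaks past 2-fold, 0 as deposited, became 2, 2, 1 and 1, all higher. At 1.5-fold there were 36 lower and 18 higher peaks and 2 promoter peaks past the limit, and at 4-fold 0 lower and 0 higher. Restricting peaks to gene bodies left 7 lower (12.1% of 58) and 4 higher, widening the flanks to 50 kb gave 33 lower (17.7% of 186, against 15.9% of 126), and a pseudocount of 16 reads gave 13 lower. In these alternatives the cause was the construction itself, a shift, another limit or another set of peaks. Dropping the lowest 25% of peaks by accessibility, dropping start sites of other genes, promoters within 2 kb and, added after seeing the data, start sites of all transcripts kept these results within 1.5 times; the last 2 chose the Hes1 window 1.13 kb upstream. Of 90 recomputed gene medians 55 moved by more than 0.1. The 4 placements of 0 had to move every gene median by more than that, so most of these moves were fixed by construction. Of 50 recomputed values of single named peaks, 43 stayed past 2-fold. The 7 others were at Notch3 (-0.96), Jag2 (-0.95 and -0.96), Notch2 (-0.94 and -0.95) and Heyl (0.96). No sign could change, because the largest shift (-0.42) was smaller in size than any of these differences and a pseudocount cannot reverse one. Each placement of 0 raised every value, so the positive differences could only grow under them. These counts are therefore no measure of how stable the named peaks are.

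No paired analysis was possible because only group means were used, and leaving out a replicate, the replicate block and other count tests were not run for the same reason.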
